A study of Mus musculus with 18 samples.

Results

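The interleukin-1 family genes examined here are the ligands *Il1a*, *Il1b*, *Il18* and *Il33*, the inhibitors *Il1rn* and *Il18bp*, the decoy receptor *Il1r2*, and the signalling receptor chains *Il1r1*, *Il1rap* and *Il1rl1*. They were taken by gene symbol from a count table of 21254 genes in sorted mouse lung macrophages, and these 10 genes are the whole set. All 10 passed the filter on low counts, which left 15811 genes tested. The rule that chose them went by gene symbol and used no measured value, but the set was drawn up with earlier results of these data known.

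IL-1α and IL-1β bind the receptor encoded by *Il1r1*, which signals only once it has recruited the accessory chain encoded by *Il1rap*, and the antagonist encoded by *Il1rn* occupies the same receptor without signalling. The receptor encoded by *Il1r2* binds IL-1 but lacks the signalling domain. IL-18 is held in check by the soluble binding protein encoded by *Il18bp*, and IL-33, an alarmin stored in the nucleus of epithelial and endothelial cells, acts through ST2, the product of *Il1rl1*. Monocytes and macrophages exposed to lipopolysaccharide (LPS) are a major source of IL-1, whose transcription TLR4 switches on and whose release needs proteolytic processing in the case of IL-1β and IL-18.

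WT mice (Ez+/+ × Cx3cr1Cre+) and *Ezr*-KOm mice (Ez fl/fl × Cx3cr1Cre+) were compared, both on a C57BL/6 background, 3 to 5 months old and carrying the Cre allele B6.Cx3cr1tm1.1(cre)Jung/J. Floxed *Ezr*, which encodes the membrane-cytoskeleton linker ezrin, was deleted only in *Ezr*-KOm mice. The *Cx3cr1* promoter that drives Cre is also active in some dendritic cells, eosinophils and NK cells, by the study's own account. Every mouse of both genotypes had inhaled nebulized *Pseudomonas aeruginosa* LPS (12.5 mg in 5 ml over 15 min) 24 h before lung cells were sorted, and untreated mice were not analysed here. From each genotype, 3 libraries were made of monocyte-derived macrophages (moMs, CD45+CD11b+MHC-II-Ly6C+), 3 of transitional interstitial macrophages (tnsIMs, titled trIM in the labels, MHC-II+Ly6C+) and 3 of mature interstitial macrophages (matIMs, MHC-II+Ly6C-), 18 libraries in all.

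Library totals ranged from 16512783 to 48460995 counts. *Ezr* averaged 531 ± 53.6 CPM in WT and 231 ± 63.7 in *Ezr*-KOm moMs, 586 ± 83.8 and 191 ± 57.4 in tnsIMs, and 661 ± 70.0 and 135 ± 37.4 in matIMs (mean ± SD, n = 3). The log2 difference was -1.20 ± 0.24 in moMs (adjusted p = 0.0549, edgeR), which missed the threshold, -1.62 ± 0.24 in tnsIMs (0.00365) and -2.29 ± 0.25 in matIMs (7.73e-05), and the transcript was not absent from any library. All 7 macrophage markers examined (*Csf1r*, *Lyz2*, *Itgam*, *Adgre1*, *Fcgr1*, *Mertk*, *C1qa*) were detected in every group. Markers of other cells were not evenly spread. The summed level of 5 markers of mature migratory dendritic cells (*Ccr7*, *Fscn1*, *Ccl22*, *Cacnb3*, *Il4i1*) was 18.6 to 23.3 CPM in WT moMs, 263 to 331 in WT tnsIMs and 4765 to 6413 in WT matIMs. That of 5 markers of alveolar epithelium (*Sftpc*, *Sftpb*, *Sftpa1*, *Epcam*, *Cdh1*) was highest in WT tnsIMs, at 2443 to 4061 CPM, against 112 to 149 in WT moMs and 529 to 567 in WT matIMs. Within the epithelial list, *Epcam* and *Cdh1* were highest in matIMs among the WT groups, with means of 12.6 and 238 CPM. Within the migratory dendritic cell list, *Il4i1* was barely detected and did not follow the sum. Its WT means were 0.194 CPM in moMs, 0.0342 in tnsIMs and 0.381 in matIMs. CPM are counts relative to the TMM-scaled library size, as edgeR gives them, and library values are given in the order of replicates 1, 2 and 3. In bulk libraries a smaller number of cells of one type and less RNA in each of them cannot be told apart.

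On GRCm39, *Il1a* (chr2:129141530-129151892, minus strand) and *Il1b* (chr2:129206490-129213059, minus strand) lie 54.6 kb apart, and *Il1rn* (chr2:24226865-24241506, plus strand) lies elsewhere on the same chromosome. The receptor genes *Il1r2*, *Il1r1* and *Il1rl1* sit together on the plus strand of chromosome 1 within 391 kb, at chr1:40113239-40164391, chr1:40264240-40356417 and chr1:40468730-40504575 in that order. The others are scattered, with *Il1rap* at chr16:26400454-26548867 and *Il18* at chr9:50466127-50493140 on the plus strand, *Il18bp* at chr7:101664092-101667897 on the minus strand and *Il33* at chr19:29902514-29938118 on the plus strand. Several members overlap a gene on the other strand (*Gm14023* with *Il1a* and *Il1b*, *Il1bos* with *Il1b*, *Gm16894* with *Il1r2*, *Gm20319* with *Il1rap*, *Bco2* and *Tex12* with *Il18*, *Numa1* with *Il18bp*, *Gm41832* with *Il33*), and the libraries do not mark strand, so reads in such stretches cannot be assigned to one gene.

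The 250 bases before the annotated start are shown for *Il1a* and *Il1rn*, whose levels followed one another across the 6 groups, for *Il1b*, which varied least among the ligands, and for *Il33*, which varied most. They are RefSeq starts, found once each by exact match in GRCm39 and printed 5′ to 3′ on the gene's strand, with motif matches in capitals.
Il1a, chr2:129151893-129152142, minus strand: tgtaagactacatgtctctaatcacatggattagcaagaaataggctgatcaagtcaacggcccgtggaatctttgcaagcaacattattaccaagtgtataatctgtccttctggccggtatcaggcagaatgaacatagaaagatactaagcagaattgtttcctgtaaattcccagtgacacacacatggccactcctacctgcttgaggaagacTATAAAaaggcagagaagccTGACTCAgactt
Il1b, chr2:129213060-129213309, minus strand: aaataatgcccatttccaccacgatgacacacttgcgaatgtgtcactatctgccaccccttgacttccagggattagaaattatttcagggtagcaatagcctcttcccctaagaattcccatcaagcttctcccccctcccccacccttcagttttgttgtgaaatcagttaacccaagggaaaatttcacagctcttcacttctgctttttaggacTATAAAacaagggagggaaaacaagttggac
Il1rn, upstream start, chr2:24226622-24226871, plus strand: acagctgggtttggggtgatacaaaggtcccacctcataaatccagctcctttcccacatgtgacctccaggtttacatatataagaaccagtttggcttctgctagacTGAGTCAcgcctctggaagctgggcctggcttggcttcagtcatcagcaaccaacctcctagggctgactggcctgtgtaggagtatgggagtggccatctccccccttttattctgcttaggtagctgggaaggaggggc
Il1rn, a downstream start, chr2:24235133-24235382, plus strand: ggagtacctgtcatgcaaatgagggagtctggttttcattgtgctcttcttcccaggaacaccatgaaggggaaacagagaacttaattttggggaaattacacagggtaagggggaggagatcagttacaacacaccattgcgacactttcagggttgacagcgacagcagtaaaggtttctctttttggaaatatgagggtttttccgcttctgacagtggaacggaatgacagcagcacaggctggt
Il33, downstream start, chr19:29922940-29923189, plus strand: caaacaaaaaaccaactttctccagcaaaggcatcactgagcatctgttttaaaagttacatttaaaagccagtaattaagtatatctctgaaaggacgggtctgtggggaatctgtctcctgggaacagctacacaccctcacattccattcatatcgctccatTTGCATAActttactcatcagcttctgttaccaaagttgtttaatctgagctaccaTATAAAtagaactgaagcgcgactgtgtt

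The capitals mark TATAAA (searched on the gene's strand), the AP-1 letters TGANTCA and the C/EBP letters TTGCNNAA. A TATAAA began 32 bases before the start of *Il1a*, 31 before that of *Il1b* and 29 before the downstream start of *Il33*, and 7.59% of 32851 promoters of this length held one. An AP-1 match began 12 bases before the start of *Il1a* and 141 before the upstream start of *Il1rn* (6.75% of promoters held one on either strand), and a C/EBP match began 85 bases before the downstream start of *Il33* (9.56% held one on either strand). The CRE letters TGACGTCA (1.55%) and the PU.1 letters AGAGGAAG (3.67%), searched on both strands, were in none of these 5 windows, and neither was a κB motif (0.98% of promoters). These are matches of letters only, and binding was not measured.

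Per length of transcript, the agonists and their antagonist stood far above their receptor. In WT tnsIMs *Il1b* reached 3183 ± 659 RPKM (CPM per kilobase of exon, mean ± SD, n = 3). *Il1a* and *Il1rn* followed at 636 ± 87.8 and 553 ± 35.2 RPKM, and did not differ beyond their spread; by the length of the longest transcript *Il1rn* stood above *Il1a*, at 1200 against 648 RPKM. The decoy receptor *Il1r2* was at 73.5 ± 13.6 RPKM and the signalling receptor *Il1r1* at 0.679 ± 0.222 RPKM, a ratio per length of 117 ± 44.6 between decoy and signalling receptor. In between, *Il18* (5.80 ± 0.89 RPKM), *Il18bp* (5.71 ± 2.46) and *Il33* (5.20 ± 1.08) lay within one another's spread, and *Il1rap* was at 3.78 ± 0.738 RPKM. *Il1rl1* was lowest, at 0.0852 ± 0.0803 RPKM. *Il1b* stood first in all 6 groups, from 2521 ± 382 RPKM in WT matIMs to 3851 ± 176 in *Ezr*-KOm moMs.

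**Figure D1:**
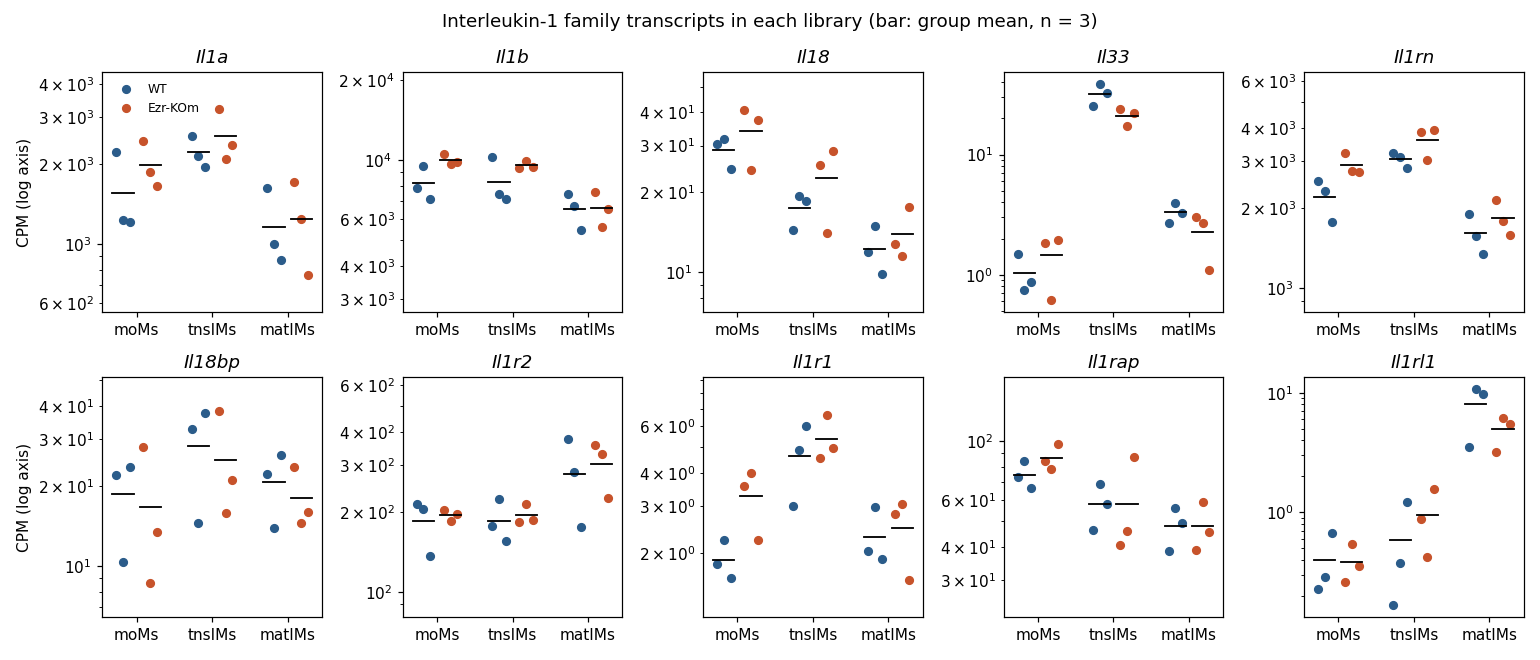
CPM of the 10 members (log axis) in each of 18 libraries, by population and genotype; points are libraries in the order of replicates 1 to 3 and bars are group means (n = 3). Il33 peaks in tnsIMs (17.4 to 38.6 CPM), Il1rl1 in matIMs (3.19 to 10.7 CPM), and Il1a and Il1rn are highest in tnsIMs.

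The comparison of the 3 populations asks how the family's transcripts differed along the sorted stages from moMs to matIMs. In WT, *Il33* and *Il1r1* were higher in tnsIMs than in moMs, and 4 members (*Il1a*, *Il1rn*, *Il1r1*, *Il33*) were lower and 1 (*Il1rl1*) higher in matIMs than in tnsIMs. Between the ends of the series, WT matIMs had less *Il18* and more *Il1rl1* and *Il33* than WT moMs. A gene was called at a Benjamini-Hochberg adjusted p under 0.05 over all 15811 genes in edgeR's quasi-likelihood test, and fold changes are on the log2 scale ± standard error.

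By that rule, 2 of 10 members were called between WT tnsIMs and moMs (21.6% of all tested genes were), 5 between WT matIMs and tnsIMs (18.5% of all) and 3 between WT matIMs and moMs (24.8%). In *Ezr*-KOm mice the counts were 1 (14.3% of all), 6 (18.2%) and 5 (23.3%). Between tnsIMs and moMs the share of members called was below that of all genes in both genotypes, and in the comparisons with matIMs it was above it. Between matIMs and tnsIMs 4 of 5 calls in WT and 5 of 6 in *Ezr*-KOm were lower in matIMs. With 10 members these shares are a description. The median log2 difference of the members between matIMs and tnsIMs was -0.48 in WT and -0.62 in *Ezr*-KOm, against 0.04 and 0.02 for all tested genes. Neighbouring populations could be paired by replicate number, and with that number as a block the counts between tnsIMs and moMs rose to 5 in WT and 2 in *Ezr*-KOm, where the block called 28.9% and 20.1% of all tested genes.

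**Figure D2:**
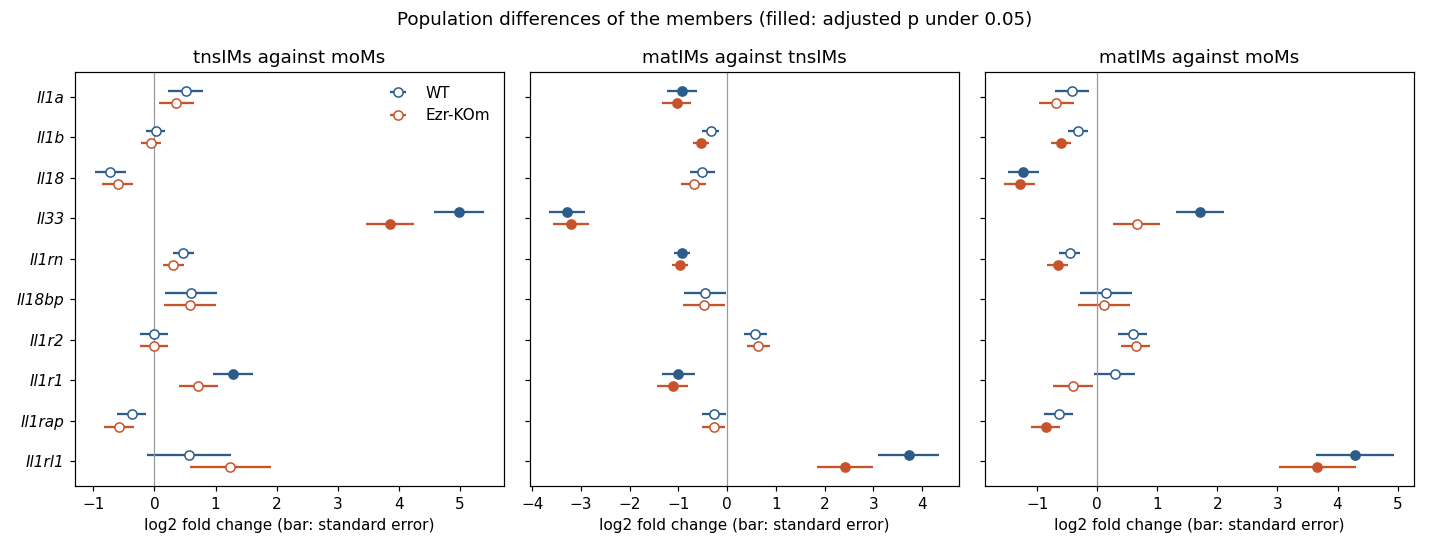
Log2 fold change (x axis, bar: standard error) of each member between pairs of populations, in WT (blue) and Ezr-KOm (orange); filled points have an adjusted p under 0.05 (edgeR, Benjamini-Hochberg). Il33 lies at 4.99 (WT) and 3.86 (Ezr-KOm) for tnsIMs against moMs, and Il1rl1 at 3.72 and 2.42 for matIMs against tnsIMs.

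*Il1a*, an agonist that is active without processing by caspase-1, read 2225, 1228 and 1214 CPM in WT moMs, 2552, 2148 and 1951 in WT tnsIMs and 1619, 997 and 875 in WT matIMs. The *Ezr*-KOm libraries read 2438, 1873 and 1658 in moMs, 3212, 2086 and 2348 in tnsIMs and 1712, 1238 and 767 in matIMs. Replicate 1 was the highest library of its group in 6 of 6 groups, and in both genotypes every tnsIM library lay above every matIM library. *Il1a* was lower in matIMs than in tnsIMs, with a log2 difference of -0.93 ± 0.30 in WT (adjusted p = 0.0334, edgeR) and by -1.04 ± 0.30 in *Ezr*-KOm (adjusted p = 0.0179, edgeR). The WT call was lost when any of 4 libraries (tnsIM replicates 1 and 2, matIM replicates 2 and 3) was left out, with adjusted p up to 0.138, and the *Ezr*-KOm call without tnsIM replicate 1 or matIM replicate 2 or 3, with adjusted p up to 0.0962. Between WT tnsIMs and moMs the difference of 0.51 ± 0.29 did not pass (adjusted p = 0.233, edgeR), whereas with the replicate number as a block it was 0.57 ± 0.15 with an adjusted p of 0.0086 (edgeR).

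*Il1rn*, the receptor antagonist, read 2533, 2329 and 1781 CPM in WT moMs, 3221, 3125 and 2846 in WT tnsIMs and 1899, 1578 and 1352 in WT matIMs. Among *Ezr*-KOm cells it read 3230, 2757 and 2741 in moMs, 3887, 3035 and 3925 in tnsIMs and 2159, 1790 and 1584 in matIMs. The WT tnsIM libraries lay above all WT moM and all WT matIM libraries, and their spread was narrow. *Il1rn* was lower in matIMs than in tnsIMs, with a log2 difference of -0.93 ± 0.17 in WT (adjusted p = 0.000568, edgeR) and -0.97 ± 0.17 in *Ezr*-KOm (adjusted p = 0.000392, edgeR), and both calls held without any one library. *Ezr*-KOm matIMs were also below *Ezr*-KOm moMs, with a log2 difference of -0.66 ± 0.17 (adjusted p = 0.0073, edgeR), a call lost without moM replicate 1 or matIM replicate 3 (adjusted p 0.0516 and 0.0514). From WT moMs to tnsIMs the difference of 0.47 ± 0.17 just missed the threshold (adjusted p = 0.0541, edgeR) and was called with the replicate block (adjusted p = 0.00889) and with DESeq2 (adjusted p = 0.028).

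*Il1b*, the agonist that caspase-1 matures, was the most even of the 4 ligands. It read 7872, 9523 and 7169 CPM in WT moMs, 10249, 7454 and 7133 in WT tnsIMs and 7440, 6751 and 5480 in WT matIMs. In *Ezr*-KOm mice it read 10529, 9646 and 9875 in moMs, 9374, 9922 and 9454 in tnsIMs and 7577, 5633 and 6549 in matIMs. The 3 WT populations overlapped, while in *Ezr*-KOm every matIM library lay below every moM and tnsIM library. It was lower in *Ezr*-KOm matIMs than in tnsIMs, with a log2 difference of -0.54 ± 0.17 (adjusted p = 0.0269, edgeR) and than in moMs by -0.60 ± 0.17 (adjusted p = 0.0114, edgeR). The first call was lost without any of 4 libraries (tnsIM replicates 1 and 2, matIM replicates 2 and 3; adjusted p up to 0.139), and the second without moM replicate 1 or matIM replicate 2 (adjusted p up to 0.0683). The WT differences of -0.34 and -0.32 did not pass, and the difference between genotypes in these population steps was -0.20 ± 0.23 and -0.28 ± 0.23 (adjusted p = 1 and 1, edgeR). The 7 macrophage markers summed to 24111 to 30398 CPM in WT moMs, 13541 to 18643 in WT tnsIMs and 8271 to 9349 in WT matIMs. *Lyz2* made up most of these sums, with means of 23279, 12693 and 6570 CPM. *Csf1r*, *Lyz2*, *Itgam*, *Fcgr1* and *Mertk* had their lowest WT mean in matIMs. *C1qa* went the other way, at 91.8, 270 and 307 CPM, and *Adgre1* was not lower in matIMs (305 CPM) than in tnsIMs (275). The part of these markers in the *Il1a*, *Il1b* and *Il1rn* differences was not tested.

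Among the receptors, *Il1r1*, the signalling chain for IL-1, was rare and peaked in tnsIMs. It read 1.82, 2.24 and 1.61 CPM in WT moMs, 3.00, 4.88 and 6.0 in WT tnsIMs and 2.04, 2.99 and 1.90 in WT matIMs, which rests on 32 to 153 counts a library. The *Ezr*-KOm libraries read 3.57, 4.01 and 2.25 in moMs, 4.57, 6.64 and 4.96 in tnsIMs and 2.80, 3.06 and 1.59 in matIMs. Every WT tnsIM library lay above every WT moM library and, by a hair, every WT matIM library. The difference between tnsIMs and moMs was 1.29 ± 0.33 in WT (adjusted p = 0.00935, edgeR), held without any one library, and was 0.72 ± 0.32 without a call in *Ezr*-KOm (adjusted p = 0.153, edgeR). In matIMs it was lower than in tnsIMs, with a log2 difference of -1.0 ± 0.33 in WT (adjusted p = 0.0388, edgeR) and -1.12 ± 0.32 in *Ezr*-KOm (adjusted p = 0.0196, edgeR). The WT call was lost without tnsIM replicate 2 or 3 or matIM replicate 1 or 3 (adjusted p up to 0.135) and the *Ezr*-KOm call without tnsIM replicate 2 or matIM replicate 3 (adjusted p up to 0.0967).

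*Il1r1* is a gene of endothelial cells and fibroblasts as well as of leukocytes, and markers of both were highest in the same population. The summed level of 5 endothelial markers (*Pecam1*, *Cdh5*, *Cldn5*, *Kdr*, *Emcn*) was 70.8 to 98.8 CPM in WT moMs, 213 to 351 in WT tnsIMs and 65.4 to 86.6 in WT matIMs. That of 5 fibroblast markers (*Col1a1*, *Col1a2*, *Col3a1*, *Dcn*, *Pdgfra*) was 21.5 to 35.5, 79.3 to 99.5 and 12.4 to 25.7 CPM. Their part in the *Il1r1* difference was not tested.

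*Il1r2*, the decoy receptor, went the other way, though without a call. It read 214, 205 and 137 CPM in WT moMs, 177, 223 and 156 in WT tnsIMs and 376, 283 and 175 in WT matIMs. Among *Ezr*-KOm cells it read 203, 185 and 197 in moMs, 183, 214 and 187 in tnsIMs and 356, 329 and 225 in matIMs. Replicate 3 of WT matIMs lay among the moM and tnsIM libraries, while the *Ezr*-KOm matIM libraries lay above all of them. The difference between matIMs and tnsIMs was 0.58 ± 0.24 in WT and 0.64 ± 0.24 in *Ezr*-KOm (adjusted p = 0.1 and 0.0686, edgeR), and with the replicate block it passed in both (adjusted p = 0.0289 and 0.016). Neutrophils are rich in *Il1r2*. Of 9 neutrophil markers, *Mmp8* read 299 to 422 CPM in WT moMs, 35.9 to 38.4 in tnsIMs and 8.93 to 14 in matIMs, and the other 8 (*S100a8*, *S100a9*, *Ly6g*, *Retnlg*, *Cxcr2*, *Camp*, *Ltf*, *Ngp*) summed to 57.1 to 98.1, 165 to 261 and 155 to 191 CPM. Their part in the *Il1r2* difference was not tested.

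*Il1rap*, the accessory chain shared by the receptors for IL-1 and IL-33, declined towards matIMs. It read 83.9, 78.2 and 97.5 CPM in *Ezr*-KOm moMs, 40.8, 46.0 and 87.4 in tnsIMs and 39.0, 58.9 and 45.5 in matIMs, and the tnsIM spread came from replicate 3. In WT it read 73.3, 83.8 and 66.3 in moMs, 46.4, 69.0 and 58.0 in tnsIMs and 38.7, 55.8 and 49.3 in matIMs. In both genotypes the matIM libraries lay below the moM libraries. The matIM to moM difference was -0.86 ± 0.24 in *Ezr*-KOm (adjusted p = 0.0139, edgeR) and -0.64 ± 0.24 in WT, which did not pass (adjusted p = 0.0633, edgeR; 0.0373 with DESeq2). Between *Ezr*-KOm tnsIMs and moMs the difference of -0.58 ± 0.24 was called only with a replicate block (adjusted p = 0.0428, against 0.126 without it, both edgeR).

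The widest differences among the 10 genes were those of IL-33 and its receptor, in different populations. *Il33* read 1.48, 0.746 and 0.866 CPM in WT moMs, 25.2, 38.6 and 32.5 in WT tnsIMs and 2.7, 3.97 and 3.24 in WT matIMs. In *Ezr*-KOm mice it read 1.83, 0.617 and 1.94 in moMs, 24.0, 17.4 and 22.0 in tnsIMs and 3.05, 2.68 and 1.09 in matIMs. Every tnsIM library lay above every moM and matIM library of both genotypes. Against moMs, *Il33* was 31.7-fold higher in WT tnsIMs (4.99 ± 0.41 on the log2 scale, adjusted p = 2.68e-07, edgeR) and 14.5-fold in *Ezr*-KOm tnsIMs (3.86 ± 0.39, adjusted p = 2.69e-06, edgeR). Between matIMs and tnsIMs the log2 difference was -3.28 ± 0.37 in WT and -3.20 ± 0.37 in *Ezr*-KOm (adjusted p = 3.42e-06 and 5.55e-06, edgeR). WT matIMs kept more than WT moMs (1.71 ± 0.40, adjusted p = 0.00362, edgeR), a difference of 0.66 ± 0.39 in *Ezr*-KOm that did not pass (adjusted p = 0.254, edgeR).

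Alveolar type II epithelial cells are a known store of IL-33 in the mouse lung, and the surfactant genes *Sftpc*, *Sftpb* and *Sftpa1* moved with *Il33*. *Epcam* and *Cdh1* of the epithelial list did not, with means of 8.39 and 129 CPM in WT tnsIMs against 12.6 and 238 in WT matIMs. *Sftpc*, which encodes surfactant protein C and defines these cells, read 23.9, 13.9 and 17.7 CPM in WT moMs, 870, 1876 and 1199 in WT tnsIMs and 122, 103 and 118 in WT matIMs. For each 100 CPM of *Sftpc* there were 2.06 to 2.90 CPM of *Il33* in WT tnsIMs, 2.21 to 3.85 in WT matIMs and 4.90 to 6.21 in WT moMs; in *Ezr*-KOm mice there were 1.5 to 3.85, 2.28 to 3.42 and 4.21 to 15.1. The amount of *Il33* relative to *Sftpc* overlapped between tnsIMs and matIMs in both genotypes and was higher in moMs, where it rests on 16 to 44 counts of *Il33*. This ratio was chosen after the values were seen. The 5 epithelial markers summed to 1702 to 3154 CPM in *Ezr*-KOm tnsIMs, 80.8 to 179 in moMs and 323 to 469 in matIMs, with none at 0. The endothelial and fibroblast sums were also highest in tnsIMs of both genotypes, at 213 to 351 and 79.3 to 99.5 CPM in WT. The part of these 3 marker lists in the *Il33* difference was not tested.

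*Il1rl1*, the IL-33 receptor chain, had few counts outside matIMs. It read 0.228, 0.29 and 0.669 CPM in WT moMs and 0.167, 0.38 and 1.21 in WT tnsIMs, from 4 to 31 counts a library, and 3.55, 10.7 and 9.84 CPM in WT matIMs, from 80 to 264 counts. The *Ezr*-KOm libraries read 0.261, 0.54 and 0.353 in moMs, 0.873, 0.419 and 1.57 in tnsIMs and 3.19, 6.19 and 5.53 in matIMs. Every matIM library lay above every moM and tnsIM library, with replicate 1 the lowest matIM library of both genotypes. The increase from tnsIMs to matIMs was 3.72 ± 0.63 in WT (adjusted p = 0.000265, edgeR) and 2.42 ± 0.58 in *Ezr*-KOm (adjusted p = 0.00577, edgeR). Against moMs it was 4.29 ± 0.65 and 3.66 ± 0.64 (adjusted p = 7.45e-05 and 0.000321, edgeR), and these 4 calls held without any one library. The size of these folds depends on the few counts in moMs and tnsIMs.

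ST2 is best known from mast cells, type 2 innate lymphoid cells and regulatory T cells. Mast cell and basophil markers (*Cpa3*, *Mcpt8*, *Ms4a2*, *Fcer1a*) summed to at most 1.72 CPM in any library and to 0.342 to 1.01 CPM in WT matIMs. Markers of T, NK and innate lymphoid cells (*Cd3e*, *Cd3d*, *Nkg7*, *Ncr1*, *Gata3*) summed to 18.1 to 20.8 CPM in WT matIMs, within the 16.8 to 26.6 CPM of WT moMs. *Nkg7* made up most of this sum, with means of 12.5 CPM in WT moMs and 11.7 in WT matIMs. *Gata3* was lowest in WT moMs, with means of 0.828 CPM there, 2.12 in tnsIMs and 1.36 in matIMs. The list held no marker particular to regulatory T cells. The part of these lymphoid and mast cell markers in the *Il1rl1* difference was not tested. The migratory dendritic cell markers rose with *Il1rl1* between tnsIMs and matIMs, from 331 to 519 CPM in *Ezr*-KOm tnsIMs to 5800 to 6869 in *Ezr*-KOm matIMs. From moMs to tnsIMs these markers rose as well, from 22.1 to 40.4 CPM in *Ezr*-KOm moMs. *Il1rl1* was not called in that step, at 0.57 ± 0.69 in WT and 1.24 ± 0.66 in *Ezr*-KOm (adjusted p = 0.61 and 0.244, edgeR). The sum of 4 markers of conventional dendritic cells (*Flt3*, *Zbtb46*, *Xcr1*, *Clec9a*) was also highest in matIMs. It was 41.4 to 47.9 CPM in WT moMs, 23.1 to 43.5 in tnsIMs and 200 to 290 in matIMs, mostly from *Flt3* and *Zbtb46*. *Xcr1* was highest in WT moMs, with means of 6.26 CPM there, 3.23 in tnsIMs and 3.76 in matIMs. The part of these dendritic cell markers in the *Il1rl1* and *Il1r2* differences was not tested.

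**Figure D3:**
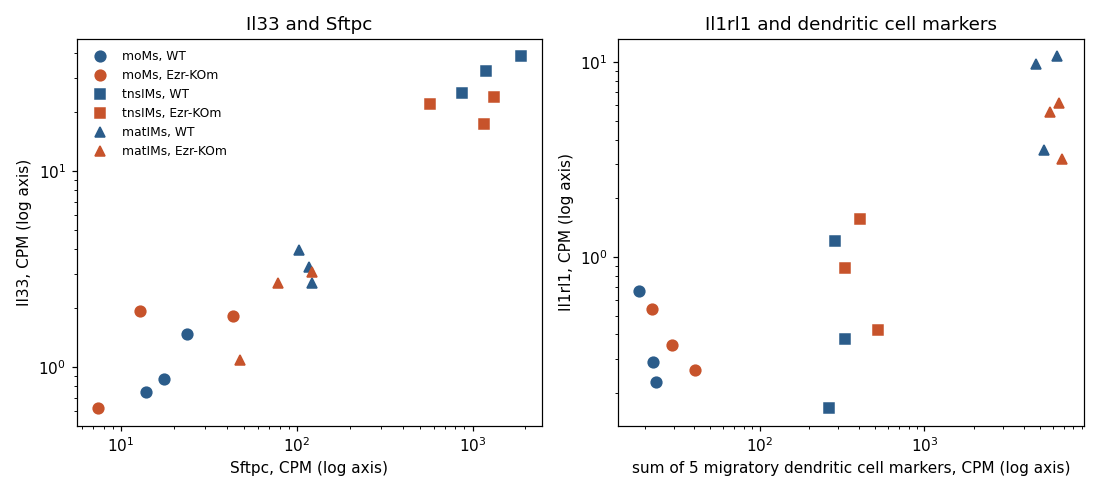
Left, Il33 against Sftpc; right, Il1rl1 against the sum of 5 migratory dendritic cell markers (CPM, log axes), 1 point for each of 18 libraries, with shape for population and colour for genotype. The 6 tnsIM libraries hold the most Il33 (17.4 to 38.6 CPM) and the most Sftpc, and the 6 matIM libraries hold the most Il1rl1 (3.19 to 10.7 CPM) and the most dendritic cell marker transcript (4765 to 6869 CPM).

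*Il18*, the second caspase-1 substrate of the family, was highest in moMs. It read 30.3, 31.7 and 24.4 CPM in WT moMs, 14.4, 19.4 and 18.5 in WT tnsIMs and 11.9, 15.0 and 9.87 in WT matIMs. Among *Ezr*-KOm cells it read 40.8, 24.2 and 37.5 in moMs, 25.3, 14.1 and 28.5 in tnsIMs and 12.8, 11.5 and 17.7 in matIMs. No matIM library reached the lowest moM library of its genotype. The matIM to moM difference was -1.23 ± 0.26 in WT and -1.29 ± 0.26 in *Ezr*-KOm (adjusted p = 0.00157 and 0.00106, edgeR), and both held without any one library. The WT step from moMs to tnsIMs, -0.72 ± 0.26, just missed the threshold (adjusted p = 0.0512, edgeR) and passed with the replicate block (0.0372) and with DESeq2 (0.0387). With the block within each genotype *Il18* was also called between *Ezr*-KOm tnsIMs and moMs (adjusted p = 0.0113) and between matIMs and tnsIMs of both genotypes (0.0311 in WT and 0.00761 in *Ezr*-KOm, edgeR). Alveolar macrophage markers (*Siglecf*, *Fabp4*, *Car4*, *Chil3*) took the same order, with sums of 5229 to 6529 CPM in WT moMs, 1106 to 1544 in tnsIMs and 405 to 564 in matIMs, but *Chil3* alone made up 99.0 to 99.5% of the sum in WT moMs, and the other 3 genes summed to 32.3 to 51.7 CPM there and 83.8 to 143 in WT matIMs. Their part in the *Il18* difference was not tested.

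*Il18bp*, the soluble inhibitor of IL-18, overlapped between all populations of each genotype. It read 22.1, 10.4 and 23.7 CPM in WT moMs, 32.7, 14.5 and 37.8 in WT tnsIMs and 22.3, 13.9 and 26.2 in WT matIMs. In *Ezr*-KOm mice it read 28.1, 8.64 and 13.5 in moMs, 38.2, 15.9 and 21.1 in tnsIMs and 23.6, 14.6 and 16.0 in matIMs. Replicate 2 lay below the group mean in 6 of 6 groups, by 0.63 on the log2 scale on average, and replicate 1 above it in 6 of 6, by 0.47. Without a block none of the 6 population differences was called, the largest being 0.60 ± 0.43 between WT tnsIMs and moMs (adjusted p = 0.353, edgeR). All 6 same-number pairs were higher in tnsIMs than in moMs. With the replicate number as a block the adjusted p was 0.0747 in WT and 0.0723 in *Ezr*-KOm, and with a block for the number within each genotype both were called, at 0.58 ± 0.16 (adjusted p = 0.0137) and 0.63 ± 0.16 (0.0105; edgeR).

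Because agonist and antagonist, or decoy and receptor, act against each other, the ratio of their counts was compared within each library, over 6 libraries of each population, with a two-sided exact permutation test that moved population labels within a genotype (smallest p 0.005, Benjamini-Hochberg over 12 tests). *Il1b* to *Il1rn* was lowest in tnsIMs. It was 3.11, 4.09 and 4.02 in WT moMs, 3.18, 2.39 and 2.51 in WT tnsIMs and 3.92, 4.28 and 4.05 in WT matIMs, and in *Ezr*-KOm mice 3.26, 3.50 and 3.60 in moMs, 2.41, 3.27 and 2.41 in tnsIMs and 3.51, 3.15 and 4.13 in matIMs. The tnsIM value was different from that of moMs by -0.42 on the log2 scale (exact permutation p = 0.02, adjusted p = 0.04, in 5 of 6 same-number pairs), and matIMs were above tnsIMs by 0.52 (exact permutation p = 0.01, adjusted p = 0.03, 5 of 6 pairs). MatIMs and moMs differed by 0.09 (adjusted p = 0.54, exact permutation test). *Il1a* to *Il1rn* was within 0.08 on the log2 scale in all 3 comparisons (exact permutation p from 0.61 to 0.935), with group means of 0.656 to 0.722.

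*Il1r2* to *Il1r1* was also lowest in tnsIMs. Each library held 115, 90.7 and 83.6 *Il1r2* counts for 1 of *Il1r1* in WT moMs, 58.7, 45.4 and 25.9 in WT tnsIMs and 182, 93.9 and 91.1 in WT matIMs. In *Ezr*-KOm mice it held 56.7, 45.8 and 86.7 in moMs, 39.9, 32.2 and 37.5 in tnsIMs and 126, 107 and 139 in matIMs. The log2 ratio was lowest in tnsIMs, with a difference of -0.98 against moMs (adjusted p = 0.03), and matIMs exceeded tnsIMs by 1.63 (adjusted p = 0.03), both in 6 of 6 pairs by the exact permutation test. Against moMs the matIM ratio was higher by 0.65, which just missed the threshold (adjusted p = 0.0514, exact permutation test). That difference was 0.28 in WT and 1.02 in *Ezr*-KOm. *Il18bp* to *Il18* was higher in tnsIMs and in matIMs than in moMs, by 1.28 and 1.48 (adjusted p = 0.036 and 0.03, exact permutation test, 6 of 6 pairs each), from a range of 0.330 to 0.969 in moMs to 0.739 to 2.27 in tnsIMs and 0.905 to 2.65 in matIMs.

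Of these 6 called ratios, *Il1b* to *Il1rn* between tnsIMs and moMs lost its call in 6 of 12 fits that left out 1 library (replicates 2 and 3 of WT moMs, *Ezr*-KOm moMs or WT tnsIMs; adjusted p up to 0.07). *Il18bp* to *Il18* between tnsIMs and moMs lost it in 7 of 12 (without replicate 2 of WT moMs, 2 or 3 of *Ezr*-KOm moMs, 1 or 3 of WT tnsIMs, or 1 or 2 of *Ezr*-KOm tnsIMs; adjusted p up to 0.07), and between matIMs and moMs only without WT moM replicate 2 (adjusted p = 0.06), all by the exact permutation test. With labels swapped only between libraries of one number the smallest p is 0.0312 and the adjusted p of these ratios was 0.075 or 0.107, so none passed. The ratios compare transcripts and not proteins, and *Il18bp* shares its locus with *Numa1*.

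**Figure D4:**
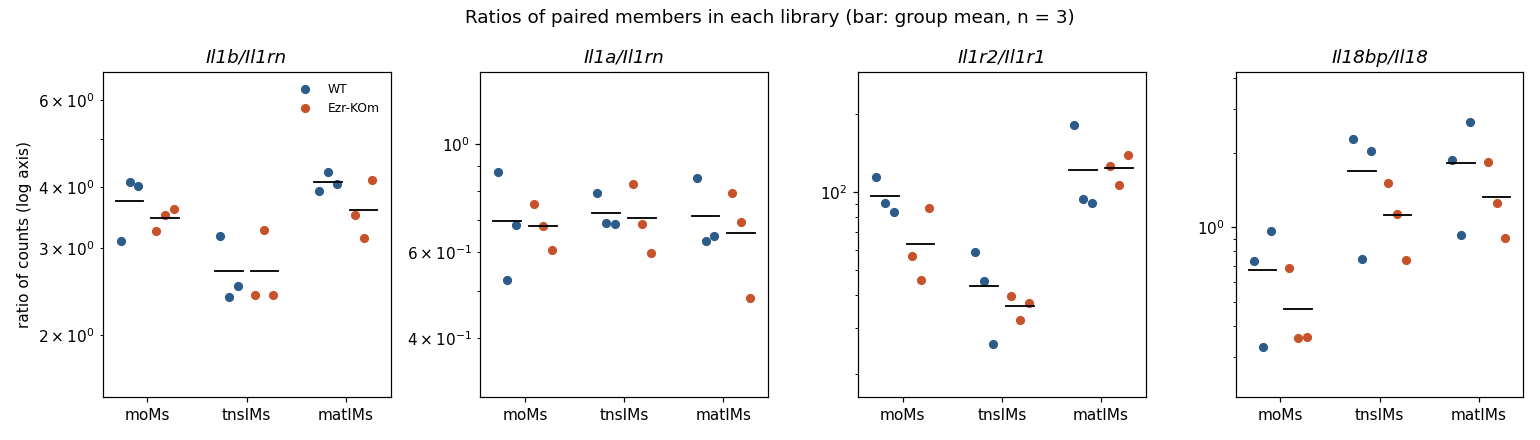
Ratio of counts of 4 pairs of members in each of 18 libraries (log axis), by population and genotype; bars are group means (n = 3). Il1b/Il1rn and Il1r2/Il1r1 are lowest in tnsIMs, Il18bp/Il18 is lowest in moMs, and Il1a/Il1rn has group means of 0.656 to 0.722.

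The comparison of genotypes asks whether loss of ezrin altered the family within a population. In edgeR's test 0 members were called between *Ezr*-KOm and WT moMs (0.171% of all genes were), 0 between the tnsIMs (0.164%) and 0 between the matIMs (0.152%). With DESeq2 the count was also 0 in each population. At an unadjusted p under 0.05 edgeR gave 2 members in moMs and 0 in tnsIMs and matIMs, and DESeq2 gave the same numbers. The study counted a gene as changed at a raw p below 0.05 when its log2 fold change also exceeded 0.75 in size, and by that rule 1 member passed in moMs (2.51% of all genes did), 0 in tnsIMs (1.83%) and 0 in matIMs (2.4%). The study's text names *Il1a* among cytokines that loss of ezrin raised in moMs and tnsIMs. Here *Il1a* was higher by 0.36 ± 0.29 in moMs and 0.20 ± 0.29 in tnsIMs (unadjusted p = 0.242 and 0.502, edgeR). It did not meet that rule in either population.

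The member that met the study's rule was *Il1r1* in moMs, at 3.57, 4.01 and 2.25 CPM in *Ezr*-KOm against 1.82, 2.24 and 1.61 in WT. The libraries did not overlap, but replicate 3 of *Ezr*-KOm moMs stood next to the highest WT library. The difference was 0.79 ± 0.33, or 1.73-fold (unadjusted p = 0.0284, adjusted p = 1, edgeR), and it no longer met the rule without WT replicate 1 or 3 or *Ezr*-KOm replicate 1. The sum of the 5 fibroblast markers did not overlap between the same libraries either, at 40.8 to 51.2 CPM in *Ezr*-KOm against 21.5 to 35.5 in WT. Within that list *Col3a1* did overlap, at 14.9 to 21.4 against 9.25 to 18.5 CPM. The sum of the 5 endothelial markers overlapped too, at 81.3 to 103 against 70.8 to 98.8 CPM. The part of these markers in the *Il1r1* difference was not tested. *Il1rn* in moMs was higher by 0.39 ± 0.17 (unadjusted p = 0.0306, adjusted p = 1, edgeR), with all 3 *Ezr*-KOm libraries (2741 to 3230 CPM) above all WT libraries (1781 to 2533 CPM). *Il1b* in moMs also did not overlap, at 9646 to 10529 CPM against 7169 to 9523, a difference of 0.29 ± 0.17 (unadjusted p = 0.0947, adjusted p = 1, edgeR).

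These were the 3 of 10 members whose moM libraries did not overlap between genotypes, against 8.52% of all tested genes. In tnsIMs 1 of 10 did not overlap (5.81% of all), and in matIMs 0 of 10 (10.1% of all). The one in tnsIMs was *Il33*, lower in *Ezr*-KOm at 24.0, 17.4 and 22.0 CPM against 25.2, 38.6 and 32.5 in WT, a difference of -0.60 ± 0.33 (unadjusted p = 0.0819, adjusted p = 1, edgeR). The summed epithelial markers of the same libraries were 1702 to 3154 against 2443 to 4061 CPM, overlapping, and their part in it was not tested. The replicate block called no member between genotypes, with adjusted p of 0.485 for *Il1rn*, 0.689 for *Il1r1* and 0.711 for *Il1a* in moMs (edgeR).

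Between libraries of one replicate number, *Il1rn* was higher in *Ezr*-KOm in 8 of 9 pairs, and *Il1a*, *Il1b* and *Il1r1* in 7 of 9 each. *Il33* was higher in 3 of 9. The 9 pairs are 3 replicate numbers in 3 populations, whose libraries correlate within a number, so they are not independent. Over the 10 members the median log2 difference came to 0.27 for moMs, 0.21 for tnsIMs and 0.05 for matIMs, and over all tested genes to 0 each time. Apart from *Il1r1* in moMs, the fitted log2 differences of all members ranged from -0.69 (*Il1rl1* in matIMs) to 0.60 (*Il1rl1* in tnsIMs), with standard errors of 0.53 and 0.63 for these and adjusted p = 1 (edgeR).

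**Figure D5:**
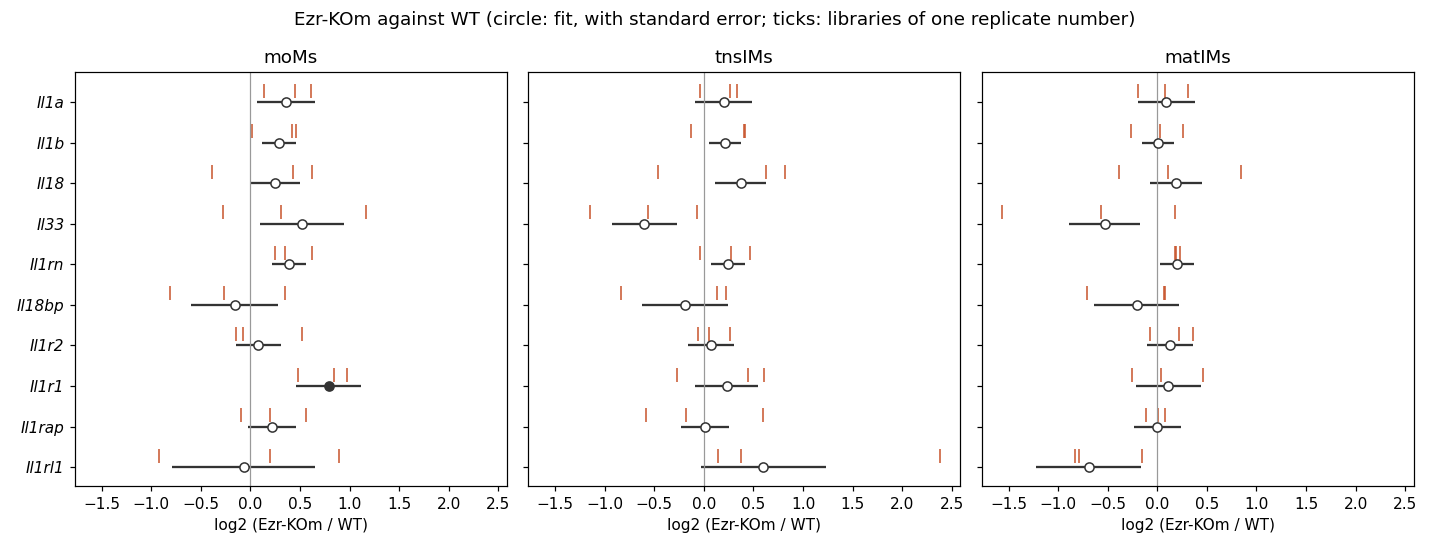
Log2 ratio of Ezr-KOm to WT for each member in moMs, tnsIMs and matIMs: circles with bars are edgeR estimates with standard errors, and ticks are the 3 pairs of libraries that share a replicate number. The filled circle, Il1r1 in moMs (0.79), is the 1 value that meets the study's unadjusted rule; none has an adjusted p under 0.05.

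Whether the genotype difference itself changed between populations was tested as an interaction. No member passed in any of the 3 interactions, in which 0% of all tested genes were called, and DESeq2 called 0 as well. At an unadjusted p under 0.05 there was 1 member, *Il33*, whose genotype difference was lower in tnsIMs than in moMs, with a log2 difference of -1.13 ± 0.54 (unadjusted p = 0.0494, adjusted p = 1, edgeR), from 0.52 in moMs to -0.60 in tnsIMs. The moM value rests on 16 to 44 counts a library.

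Other genes of the pathway were taken from lists of 42 genes, of which 37 were tested. Between populations 12 (tnsIMs and moMs), 8 (matIMs and tnsIMs) and 15 (matIMs and moMs) of the 37 were called in WT. Of all tested genes 21.6%, 18.5% and 24.8% were. In *Ezr*-KOm the counts were 9, 10 and 15, against 14.3%, 18.2% and 23.3% of all. Between genotypes 0 were called in moMs (0.171% of all), tnsIMs (0.164%) and matIMs (0.152%). With lists of this size the counts are a description. Of the other ligands, *Il36g*, an IL-36 agonist, followed the *Il33* order, with 15.7 ± 6.36 CPM in WT moMs, 72.1 ± 26.5 in tnsIMs and 26.5 ± 7.75 in matIMs, with log2 differences of 2.21 ± 0.38 for tnsIMs against moMs and -1.44 ± 0.36 (adjusted p = 0.000363 and 0.00818, edgeR). *Il36a* rose by 1.84 ± 0.61 in the first step (adjusted p = 0.0388, edgeR) with a mean below 1 CPM in both populations.

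Among 4 other receptor genes tested, *Sigirr*, which restrains signalling of the family, rose in WT matIMs over tnsIMs by 1.13 ± 0.23 (adjusted p = 0.00157, edgeR), and *Il18rap*, the accessory chain of the IL-18 receptor, by 0.91 ± 0.26 (adjusted p = 0.0176, edgeR). *Il18r1*, the IL-18 binding chain, rose in WT tnsIMs over moMs by 1.96 ± 0.47 (adjusted p = 0.00553, edgeR), at a level of 2.65 ± 1.04 CPM. The fourth, *Il1rl2*, was not called in any of the 6 comparisons.

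Of the 9 genes for processing and release of the family's ligands, 4 were called between WT tnsIMs and moMs (21.6% of all tested genes were), and all 4 fell. They were the caspases *Casp4* (-1.07 ± 0.26, adjusted p = 0.00611) and *Casp1* (-0.87 ± 0.22, 0.00802), the DNA sensor *Aim2* (-1.0 ± 0.30, 0.0243) and the calpain *Capn2* (-0.48 ± 0.15, 0.0259, all edgeR). *Nlrp3*, the sensor of the best known inflammasome, fell later, by 0.74 ± 0.22 between WT matIMs and tnsIMs (adjusted p = 0.0213, edgeR) and -0.69 ± 0.22 in *Ezr*-KOm (adjusted p = 0.031, edgeR). In the same step the kinase-like inhibitor *Irak3* fell by 0.83 ± 0.14 in WT (adjusted p = 0.000383, edgeR). It was the 1 called of 12 genes of proximal signalling (18.5% of all tested genes were called). *Irak4*, *Tab2* and the adaptor *Myd88* were the 3 called of these 12 in WT tnsIMs against moMs (21.6% of all), with log2 differences of -0.88, -0.74 and -0.47.

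Among 10 genes that both IL-1 and TLR signalling induce, 1 rose and 1 fell between WT tnsIMs and moMs (21.6% of all tested genes were called). Between WT matIMs and tnsIMs 3 fell (18.5% of all were called). *Lcn2*, which encodes a siderophore-binding protein of neutrophils and epithelium as well as macrophages, rose by 3.07 ± 0.27 in WT tnsIMs over moMs (adjusted p = 4.34e-07, edgeR), with the epithelial markers rising in the same libraries, and fell by 2.30 ± 0.26 in matIMs (adjusted p = 3.34e-06, edgeR). *Il6* fell by 1.07 ± 0.22 in the first step (adjusted p = 0.00146, edgeR). *Saa3* and *Cxcl2* fell in WT matIMs against tnsIMs, with log2 differences of -2.06 ± 0.30 and -0.94 ± 0.31 (adjusted p = 6.2e-05 and 0.0411, edgeR).

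The genes whose 6 group means were most like a member's were ranked by the root mean square difference of centred log2 CPM, for the 6 members that spanned more than 1 on that scale. For *Il1a* they were *Agpat3*, *Il1rn* and *Inhba* (0.05 each), so that antagonist and agonist were among each other's nearest, and for *Il1rn* they were *Il1a* (0.05), *Gdpd1* (0.06) and *Agpat3* (0.07). For *Il18* they were *Pkdcc* (0.05), *Mapk6* (0.05) and *Zeb2* (0.06), and for *Il1r1* they were *Cadps2* (0.08), *Il23a* (0.13) and *Arl4d* (0.14). *Il33* had *Car8* (0.18), *Ptprf* (0.21) and *Sec14l4* (0.23), and *Il1rl1* had *Kcnip3* (0.22), *Kmo* (0.27) and *Lag3* (0.31). With 6 points from 18 shared libraries this likeness is a description.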

How the data were processed

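The authors amplified cDNA of sorted cells with a SMART-Seq v4 kit, made Nextera XT libraries, aligned the reads with STAR 2.7.9a to GRCm39 and deposited raw whole-number counts per gene, without normalization; the strand column is not given in the sources used here. Low-input amplification without molecular identifiers leaves duplicate reads in the counts. Columns were matched to samples by name, and 0 columns belonged to no sample. From the counts, edgeR 4.0.16 in R 4.3.3 fitted 1 quasi-likelihood model of 6 groups to 18 libraries (filterByExpr with a smallest count of 10, TMM), with two-sided tests and Benjamini-Hochberg adjustment over 15811 genes, and DESeq2 1.42.0 was an alternative. Ratios (0.5 added to each count) were tested by exact permutation in Python 3.11.15. RPKM used the exon union of a later Gencode annotation of the same build. The edgeR fit was tried on simulated counts for the comparison of WT tnsIMs with moMs.

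The 10 members, the lists and the tests were chosen with earlier results of these data known. All members were named; of the lists, up to 3 called genes with the largest change for each list and comparison, and *Il1rl2* and *Capn2* were added after their values were seen, to complete a count. The mice were 3 per genotype in the study's account, and whether the 3 populations of one number came from one mouse is not stated, so p-values measure the spread between these libraries. Replicates of a group differed by more than sampling noise (chi-square per degree of freedom 21.9 to 98 over 18 pairs). To see if replicate numbers mark pairs, deviations from group means were correlated. For libraries of one number the correlation was at least 0.102 between genotypes and 0.169 between neighbouring populations, so these are paired. Between matIMs and moMs it was lower, at least 0.0905 in *Ezr*-KOm and 0.0947 in WT. Libraries of different numbers reached at most 0.0508 between genotypes and 0.0316 between populations, below all of these. The result of 1 marker list is not reported here. Alternatives were upper-quartile factors, library totals, other filters, robust empirical Bayes, separate fits, replicate blocks and each library left out.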

Additional observations from a re-analysis of the deposited data

How the results depend on the processing

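Among the counts and ratios recomputed, 462 values kept their direction and call (counts: stayed within 1.5 times), 20 lost their call, 4 gained one, 16 moved and 8 changed sign. Among the values for single genes 419 kept both, 22 lost their call, 13 gained one and 7 moved. The members called between WT tnsIMs and moMs were 4 with DESeq2 against 2, and between WT matIMs and moMs 5 against 3. With library totals alone, 5 genes of the pathway lists were called between *Ezr*-KOm tnsIMs and moMs against 9. With 2 counts added to both genes, *Il1r2* to *Il1r1* between matIMs and moMs stayed at 0.65 and passed (adjusted p = 0.0429, exact permutation test). The cause was not tested for these.

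With the replicate number as a block, 5 members were called between WT tnsIMs and moMs, 7 between WT matIMs and moMs and 2 between *Ezr*-KOm tnsIMs and moMs. Of all tested genes 28.9%, 30.9% and 20.1% were. Libraries of one number correlated less between WT matIMs and moMs (at least 0.0947) than between neighbouring populations. With a block within each genotype the counts were 6, 7 and 4, against 30.0%, 31.6% and 21.5% of all. No call made without the block was lost with the replicate block. Blocked by number, the ratios kept their log2 differences (*Il1b* to *Il1rn* -0.42 and 0.52, *Il1r2* to *Il1r1* -0.98 and 1.63, *Il18bp* to *Il18* 1.28 and 1.48) and lost their calls, with 64 arrangements and a smallest p of 0.0312.

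Leaving out 1 library, the members called ranged from 1 to 2 between *Ezr*-KOm tnsIMs and moMs (2 without tnsIM replicate 3), from 3 to 6 between *Ezr*-KOm matIMs and moMs (3 without moM replicate 1) and from 3 to 4 between WT matIMs and tnsIMs (3 without tnsIM replicate 2). By the study's rule they ranged from 0 to 1 in moMs and from 0 to 1 in tnsIMs (1 without WT replicate 3). The log2 difference of *Il1b* to *Il1rn* between tnsIMs and moMs ranged from -0.50 to -0.38, and that of *Il1r2* to *Il1r1* between matIMs and moMs from 0.49 to 0.78 (passing without WT moM replicate 1 or WT matIM replicate 2 or 3). *Il18bp* to *Il18* ranged from 1.06 to 1.54 between tnsIMs and moMs, 1.25 to 1.69 between matIMs and moMs and -0.06 to 0.40 between matIMs and tnsIMs. *Il1a* to *Il1rn*, never called, changed sign, from -0.03 to 0.15 between tnsIMs and moMs, -0.15 to 0.03 between matIMs and tnsIMs and -0.11 to 0.09 between matIMs and moMs. Counts of 4 to 37 for *Il1rl1* outside matIMs limit the precision of its folds.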
